A study of Mus musculus with 12 samples.

Results

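The genes described here are the ErbB receptors Egfr, Erbb2, Erbb3 and Erbb4, the EGF-like ligands Nrg1, Nrg4, Hbegf, Areg and Ereg, and the sheddase Adam17, in M1-activated macrophages. They were chosen by name for their place in 1 signaling pathway, and they are 10 of the 22243 genes in the table, with 11 of its 28808 transcripts. RNA was sequenced from bone marrow-derived macrophages (BM-Mɸs) of 12 C57Bl/6 mice, a pair of littermates from each of 6 litters. One mouse of each pair carried LysMCre and ErbB4-floxxed alleles (ErbB4myeKO, 6 libraries), and its littermate carried the floxxed alleles without the recombinase (ErbB4FF, 6 libraries). Both groups thus shared the floxxed Erbb4 gene, the culture in M-CSF conditioned medium and the activation by IFNγ (100 U/mL, 16 h) and then LPS (100 ng/mL, 6 h), and cells without activation are not part of the comparison. The Lyz2 (LysM) promoter drives Cre in macrophages, monocytes and neutrophils, so that in culture the deletion depends on Lyz2 activity in each cell. The labels do not state the sex.

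ErbB receptors are tyrosine kinases that signal as dimers. EGFR and ErbB4 bind ligand and have an active kinase, ErbB2 has no known ligand and serves as a partner for the others, and ErbB3 binds neuregulins but has little kinase activity of its own. Their ligands are made as membrane-spanning precursors, each with an EGF-like domain held by disulfide bonds, and are released when ADAM17 or a related metalloprotease cuts the stalk. NRG4 binds ErbB4, NRG1 binds ErbB3 and ErbB4, HB-EGF and epiregulin bind EGFR and ErbB4, and amphiregulin binds EGFR. In macrophages, amphiregulin, epiregulin and HB-EGF are known as products of inflammatory stimulation that act on neighboring epithelial and stromal cells.

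All 11 EGF-like ligand genes of the mouse held 6 cysteine codons in the spacing of an EGF-like domain in the coding sequence of their listed transcripts, with small differences in length between the cysteines, and each time split by an intron between neighboring exons. The stretches of 4 members are shown because they mark what these ligands share and how far they differ in the letters that reads are matched to. They run from the first to the last cysteine codon, 5′ to 3′ on the coding strand of GRCm38 (GENCODE M21), with the 6 cysteine codons in capitals. The Areg stretch lies in exons 3 and 4 of 6 (chr5:91143614-91144364, plus strand), that of Ereg in exons 3 and 4 of 5 (chr5:91088496-91089111, plus strand), that of Nrg4 in exons 4 and 5 of 9 (chr9:55242177-55280969, minus strand) and that of Nrg1 in exons 2 and 3 of 9 (chr8:31837698-31849398, minus strand).
Areg: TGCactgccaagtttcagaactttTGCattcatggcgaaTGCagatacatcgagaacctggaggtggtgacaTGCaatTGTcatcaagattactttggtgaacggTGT
Ereg: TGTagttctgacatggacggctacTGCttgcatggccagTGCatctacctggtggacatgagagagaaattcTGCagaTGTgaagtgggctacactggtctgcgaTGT
Nrg4: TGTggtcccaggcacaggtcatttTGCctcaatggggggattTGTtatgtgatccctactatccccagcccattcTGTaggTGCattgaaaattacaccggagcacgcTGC
Nrg1: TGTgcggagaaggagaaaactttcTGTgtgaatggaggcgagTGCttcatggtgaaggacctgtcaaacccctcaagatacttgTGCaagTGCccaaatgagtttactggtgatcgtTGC

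The Areg and Ereg stretches have 108 bases each and the same spacing, and 58 of those bases (53.7%) were identical without gaps. The neuregulin stretches had more codons between their cysteines, with 111 bases for Nrg4 and 120 bases for Nrg1. Across the 10 pairs of the 5 ligands of 108 bases whose sequence was compared (Areg, Ereg, Tgfa, Epgn and Btc), identity was between 45.4% and 62.0%, and no pair shared a run longer than 9 bases. The quantifier splits transcripts into short words of sequence, so the share of such words that are found nowhere else tells how well a transcript can be counted. Of the 31-base words of the listed transcripts, those of Areg and Erbb3 were 100% unique in GENCODE M21 and those of Ereg 97.0%. For Erbb4, 99.3% of words also occurred in another annotated transcript of the same gene, and for Adam17 99.1%. Nrg1 has 18 annotated transcripts and 1 in the table, Nrg4 has 13 with 2 in the table, and Adam17 has 10 with 1 in the table. Erbb4 and Egfr have 5 each and Hbegf and Erbb2 3 each, all with 1 in the table. RNA of these genes assigned to the other transcripts is not in the values below. Areg, Ereg and Erbb3 have 1 annotated transcript each.

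Values are in TPM, each transcript's share of its library per unit of transcript length, which divide by transcript length and so allow levels to be compared between genes. Depth is not given by TPM, but the deposited means of normalized counts put 1 TPM of a 1-kb transcript at about 5.99 normalized estimated counts. In order of level, Adam17 was at a mean of 108 TPM over the 12 libraries. The ligands Hbegf, Areg and Ereg had means of 3.60, 1.90 and 1.22 TPM. The receptors Erbb3, Egfr and Erbb4 had means of 0.824, 0.557 and 0.517 TPM, and Erbb2 (0.0614 TPM), Nrg1 (0.0268 TPM) and Nrg4 (listed at 0) were at or near the bottom. Only 4 of the 10 members, Adam17, Hbegf, Areg and Ereg, reached the mean of 1 TPM that was asked of a gene for the fit across all genes.

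**Figure D1:**
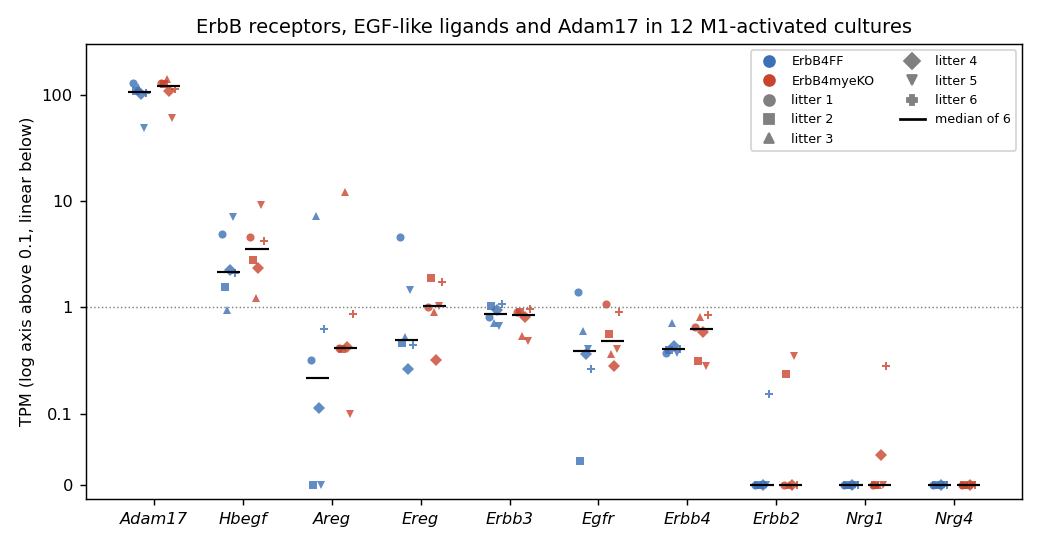
TPM of the 10 genes (y axis, logarithmic above 0.1 TPM and linear below) in 12 libraries, with 1 symbol for each litter, blue for ErbB4FF and red for ErbB4myeKO, and a bar at the median of each group of 6. Adam17 lies at 49.1 to 141 TPM in all libraries, both high Areg values (7.29 and 12.3 TPM) belong to litter 3, and most Erbb2, Nrg1 and Nrg4 values sit at 0.

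Neighbors in this order were compared within litters by the log2 ratio of their levels, for 9 neighboring pairs. Adam17 was above Hbegf in 12 of 12 libraries, by 4.89 ± 1.23 on the log2 scale (SD, n = 6 litters; exact permutation p = 0.0312, the smallest that 6 litters can give, adjusted over the 9 pairs 0.141). Erbb4 was above Erbb2 in 11 of 12 libraries, by 0.86 ± 0.37 (SD, n = 6 litters; exact permutation p = 0.0312, adjusted 0.141). Erbb2 was listed at 0 in most libraries, so this size depends on the 0.5 added to TPM: it was 2.12 with 0.1 added and 0.51 with 1 added. The other 7 neighbors did not differ beyond their spread between litters. Hbegf was the higher over Areg in 10 of 12 libraries (mean difference 1.54, exact permutation p = 0.188), and the difference was 2.38 without litter 3 (exact permutation p = 0.0625, the smallest possible with 5 litters) and 2.37 with 0.1 added to TPM. Areg was above Ereg in only 4 of 12 libraries although its mean TPM was larger, because litter 3 carries that mean. Egfr and Erbb4 had a mean log2 difference of 0.00 ± 0.43 (SD, n = 6 litters).

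Erbb4, the gene targeted by the deletion (ENSMUSG00000062209, chr1:68032186-69108059, minus strand, GRCm38), did not separate the genotypes. In the libraries labelled ErbB4FF it was lowest at 0.372, with a median of 0.404 and a highest value of 0.716 TPM, and in those labelled ErbB4myeKO it was lowest at 0.280, with a median of 0.623 and a highest value of 0.852 TPM. The groups overlapped, and in 4 of 6 litters the library labelled ErbB4myeKO was above its littermate, with log2 ratios from -0.16 in litter 5 to 0.57 in litter 6. On average the log2 ratio was 0.17 ± 0.29 (SD, n = 6 litters; exact permutation p = 0.250), with a 95% confidence interval of -0.15 to 0.48 in limma without a filter on low values. Without litter 6 this average was 0.087. TPM of the whole transcript of 28 exons also counts reads outside the floxxed part, so this value does not measure the deletion itself. Libraries are therefore named by their label.

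The deposited table also gives 2 variances for each transcript, a technical one that estimates the uncertainty of counting within a library, and one between the samples. For Erbb4 the technical variance was 0.387 and the variance between samples 0.131 (squared natural log of normalized counts), a ratio of 2.95. The ratio was above 1 in 16.4% of the 11686 transcripts with both values, and that of Erbb4 was at percentile 95.8 of them. Among the members only Erbb4 had a ratio above 1: it was 0.821 for Erbb3, 0.426 for Adam17, 0.110 for Ereg, 0.107 for Egfr and 0.0960 for Hbegf. For Areg, Erbb2, Nrg1 and Nrg4 both cells are blank.

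**Figure D2:**
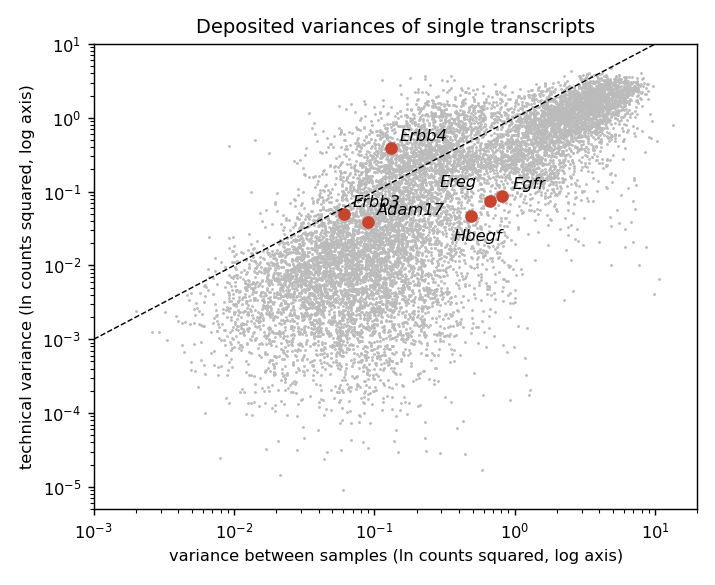
Technical variance of each transcript (y axis) against its variance between samples (x axis), both as deposited and in squared natural log of normalized counts on log axes, with grey points for 11686 transcripts and red points for the 6 members with values. On the dashed line the variances are equal, and Erbb4 lies above it with a ratio of 2.95, whereas Hbegf, Egfr and Ereg lie well below it.

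Egfr (ENSMUSG00000020122, chr11:16752203-16918158, plus strand), the receptor for EGF, amphiregulin and HB-EGF, ranged over 0.0334 to 1.41 TPM in the libraries labelled ErbB4FF (median 0.386) and over 0.282 to 1.07 TPM in those labelled ErbB4myeKO (median 0.487). Both litter 1 libraries were above all others, at 1.41 and 1.07 TPM. The groups overlapped, and the log2 ratio was above 0 in 3 of 6 litters, with 1.00 in litter 2, 0.88 in litter 6 and -0.34 in litter 3 (mean 0.19 ± 0.60, SD, n = 6 litters; exact permutation p = 0.469). Without litter 2 the mean was 0.025, and without litter 6 it was 0.047. Stromal cell markers, 8 of 8 of which were detected, followed Egfr in part: their summed level was highest in both litter 1 libraries (99.3 and 104.5 TPM), against 9.28 to 82.1 TPM in the others. The ratio of that sum had the same sign as the Egfr ratio in 5 of 6 litters, with 1.38 in litter 2, 0.79 in litter 6 and -1.12 in litter 3. In litter 5 the marker ratio was 0.91 while that of Egfr was 0.01, and the litter 5 library labelled ErbB4myeKO (82.1 TPM of markers) had less Egfr, 0.411 TPM, than the litter 3 library labelled ErbB4FF (20.7 TPM of markers, 0.595 TPM of Egfr). The markers are led by Col1a2, a subunit of type I collagen, at a mean of 21.7 TPM. Their part in the Egfr values was not tested, and in bulk RNA fewer cells of a type and less RNA per cell cannot be told apart.

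Erbb3 (ENSMUSG00000018166, chr10:128567523-128589652, minus strand) varied least of the receptors, with an SD of its log2 level of 0.217 over 12 libraries against 0.503 for Egfr and 0.274 for Erbb4. Its values ran from 0.669 to 1.09 TPM (median 0.874) in the libraries labelled ErbB4FF and from 0.488 to 0.972 TPM (median 0.858) in those labelled ErbB4myeKO, and the groups overlapped. It was lower in the library labelled ErbB4myeKO in 5 of 6 litters, with litter 1 as the exception, and the log2 ratio averaged -0.12 ± 0.12 (SD, n = 6 litters; exact permutation p = 0.0625). With limma without a filter, the Benjamini-Hochberg adjusted p was 0.782. Erbb2 (ENSMUSG00000062312, chr11:98412470-98437716, plus strand), the partner receptor of other ErbB proteins, was listed at 0 in 9 of 12 libraries. It was at 0.152 TPM in the litter 6 library labelled ErbB4FF, and at 0.235 and 0.349 TPM in the litter 2 and litter 5 libraries labelled ErbB4myeKO. A listed 0 can be a failed estimate rather than absent RNA: of the 4216 genes that averaged 10 TPM or more, 35 were listed at 0 in at least 1 library.

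Nrg4, which encodes the ligand selective for ErbB4 (ENSMUSG00000032311, chr9:55220222-55326844, minus strand), was listed at 0 in 12 of 12 libraries for both of its listed transcripts. One TPM of these transcripts, of 1000 and 1927 bases, corresponds to about 5.99 and 11.5 normalized estimated counts, and 11 other annotated transcripts of the gene are not in the table. Nrg1 (ENSMUSG00000062991, chr8:31814551-32884029, minus strand), a ligand of ErbB3 and ErbB4, was listed above 0 in only 2 libraries, both labelled ErbB4myeKO, at 0.0418 TPM in litter 4 and 0.279 TPM in litter 6. As 0 of the 2422 words of its listed transcript are unique to it, reads of the other Nrg1 transcripts share all of them. Of the EGF-like ligands outside the group, Egf and Nrg2 were listed at 0 in all 12 libraries. Btc, which encodes betacellulin, was above 0 in 8 of 12 libraries but at most 0.153 TPM, Epgn at most 0.0711 TPM and Tgfa at most 0.0513 TPM, and Nrg3 was above 0 in 1 library.

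Hbegf, Areg and Ereg were the ligands with a mean of at least 1 TPM in the listed transcripts, and each showed its own pattern over the litters. Hbegf (ENSMUSG00000024486, minus strand of chromosome 18), which encodes HB-EGF, was 0.954 TPM at the lowest, 2.17 at the median and 7.07 at the highest in the libraries labelled ErbB4FF, and 1.23, 3.53 and 9.10 TPM in those labelled ErbB4myeKO. The groups overlapped almost fully, with both litter 5 libraries at the top (7.07 and 9.10 TPM) and both litter 3 libraries near the bottom (0.954 and 1.23 TPM). Within litters the library labelled ErbB4myeKO was the higher in 5 of 6, and the log2 ratio was largest in litter 6 (0.86) and litter 2 (0.69) and below 0 in litter 1 (-0.06). It averaged 0.35 ± 0.36 (SD, n = 6 litters; exact permutation p = 0.0938), a fold of 1.28. Limma gave an adjusted p of 0.603 (Benjamini-Hochberg over 8780 genes) and a 95% interval of -0.02 to 0.73. Neutrophil markers, of which 9 of 10 were detected and Retnlg was listed at 0, were summed at 185 and 215 TPM in litter 5 and at 153 and 371 TPM in litter 6, against 39.7 to 72.8 TPM in litters 1 to 4. Most of this sum is S100a8 and S100a9, at means of 63.8 and 38.1 TPM. Only 4 of the 10 markers had a mean of at least 1 TPM, the others of these being Ngp (6.16 TPM) and Camp (3.11 TPM). Ly6g and Elane were listed at 0 in 8 and 9 of the 12 libraries. Hbegf was high in litter 5 but at 2.11 and 4.23 TPM in litter 6. Between littermates the marker sum differed most in litter 6 (log2 ratio 1.27), where the Hbegf ratio was also largest, and in the other litters its log2 ratio was between -0.17 and 0.21. The mean log2 ratio of Hbegf was 0.36 without litter 5 and 0.25 without litter 6. The part of these markers in the Hbegf levels was not tested.

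Areg, which encodes amphiregulin (ENSMUSG00000029378, chr5:91139599-91148432, plus strand), was set by 1 litter. The litter 3 libraries stood at 7.29 TPM (labelled ErbB4FF) and 12.3 TPM (labelled ErbB4myeKO), and the lower of them was 8.34 times the highest of the other 10 libraries. Those other libraries had a mean of 0.328 TPM and a highest value of 0.873 TPM, or at most about 6.36 normalized estimated counts, and 2 of them were listed at 0. Summed M1 activation markers were also highest in litter 3, at 44410 and 44750 TPM, but reached 38700 TPM in the litter 2 library labelled ErbB4myeKO, where Areg was 0.403 TPM. Dendritic cell markers (25.5 and 33.6 TPM, at most 24.2 TPM in the others) and proliferation markers (46.7 and 40.7 TPM, at most 39.3 TPM in the others) were likewise highest in litter 3. The dendritic cell sum is mostly Xcr1 (mean 13.3 TPM), and the largest part of the proliferation sum is Mki67 (mean 13.3 TPM). Both litter 3 libraries had the fewest genes above 0 TPM, 10910 and 10214. Markers of mast cells and basophils, which also make amphiregulin, summed to 0 in both litter 3 libraries, but 4 of the 8 were listed at 0 in all 12 libraries. The part of these cell types and of the M1 markers in the Areg levels was not tested.

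In the genotype comparison Areg was higher in the library labelled ErbB4myeKO in 6 of 6 litters, although the groups overlapped. The counts behind this are small outside litter 3: littermates differed by less than 1 normalized estimated count in litters 1 (2.33 and 3.01) and 5 (0.0 and 0.727), which is not detectable at this depth, and by no more than 3 in litters 2, 4 and 6. The log2 ratios ran from 0.15 in litter 1 to 0.85 in litter 2, with 0.71 in litter 3, and their mean was 0.48 ± 0.28 (SD, n = 6 litters; exact permutation p = 0.0312, and no smaller p is possible with 64 swaps within litters). This is a fold of 1.39 on the scale of TPM plus 0.5, which understates changes of low values. The mean log2 ratio was 1.01 with 0.1 added to TPM and 0.33 with 1 added. In limma the Benjamini-Hochberg adjusted p was 0.603 and the 95% interval -0.02 to 0.97. Of all 8780 genes tested, 4.82% went 1 way in all 6 litters, and 2.51% were higher in the library labelled ErbB4myeKO in all 6, so that 1 such gene among the 4 members tested is a description. Leaving out litter 3 gave a mean log2 ratio of 0.43, but a mean level of Areg below 1 TPM. Summed epithelial cell markers also were higher in the library labelled ErbB4myeKO in 6 of 6 litters, at 0.178 to 7.80 TPM against 0.132 to 3.50 TPM. All 6 of them were detected in at least 1 library, Krt8 was the most abundant at a mean of 1.14 TPM, and Krt18 and Cldn4 were listed at 0 in 8 and 9 of the 12 libraries. Their part in the Areg ratios was not tested.

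The bases before the annotated start of Areg are shown because its RNA varied most between libraries of all members (SD of the log2 level 1.50, at percentile 96.7 of all genes). They come from RefSeq (GRCm38.p6, chr5:91139349-91139598, plus strand), and the capitals mark a cyclic AMP response element (CRE, TGACGTCA) and a TATA box (TATAAA).
Areg promoter: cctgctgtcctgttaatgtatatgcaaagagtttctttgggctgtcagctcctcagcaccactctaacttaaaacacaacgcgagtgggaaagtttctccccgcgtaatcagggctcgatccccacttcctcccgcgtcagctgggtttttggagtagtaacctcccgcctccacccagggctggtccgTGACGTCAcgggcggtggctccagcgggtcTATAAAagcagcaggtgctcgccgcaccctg

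The CRE begins 61 bases and the TATA box 31 bases before the start. Searched on both strands in windows of 300 bases, from 250 before to 50 after the start, the CRE occurred in 1.79% of 32851 RefSeq mouse promoters and the TATA box in 13.6%. The shorter CRE half-site TGACG, which overlaps the full element at its ends, matched the Areg window at 3 positions and occurs in 20.8% of all windows, and the AP-1 site TGANTCA, in 7.81% of windows, was not among its letters. Promoters of 6 of the 10 members were in the table (Erbb4, Areg, Nrg4, Egfr, Erbb2 and Adam17), and among these the CRE and the TATA box were found for Areg alone.

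Ereg, which encodes epiregulin (ENSMUSG00000029377, chr5:91074622-91093646, plus strand), lies beside Areg. Epgn, Ereg, Areg and Btc are the 4 protein-coding genes of a stretch of 376 kb (chr5:91027464-91402994), and 46.0 kb separate the end of Ereg from the start of Areg. The levels of Areg and Ereg did not peak in the same litter: Ereg was 0.528 and 0.907 TPM in litter 3, where Areg was highest. In the libraries labelled ErbB4FF it was 0.266 TPM at the lowest, 0.495 at the median and 4.56 at the highest, and in those labelled ErbB4myeKO 0.322, 1.02 and 1.91 TPM. The groups overlapped, and the highest value came from the litter 1 library labelled ErbB4FF, whose littermate was at 1.02 TPM.

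The littermate ratios of Ereg went in opposite directions. Its log2 ratio was 1.32 in litter 2 and 1.25 in litter 6 but -1.74 in litter 1 and -0.36 in litter 5 (mean 0.17 ± 1.14, SD, n = 6 litters; exact permutation p = 0.750), and limma gave an adjusted p of 0.905 (Benjamini-Hochberg). Without litter 1 the mean log2 ratio was 0.56 and the mean level 0.908 TPM, and without litter 2 or litter 6 the mean log2 ratio was -0.06 or -0.04. The SD of the littermate ratios was 1.14 for Ereg, against 0.36 for Hbegf and 0.28 for Areg. Litters accounted for 51.4% of the variance of the log2 level of Ereg (percentile 14.6 of all genes), against 96.5% for Areg, 91.1% for Hbegf and a median of 78.1% over 8780 genes. With a pair of libraries in each of 6 litters, this share is far above 0 even for a gene without a litter effect. The 51.4% of Ereg therefore does not by itself show such an effect.

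**Figure D3:**
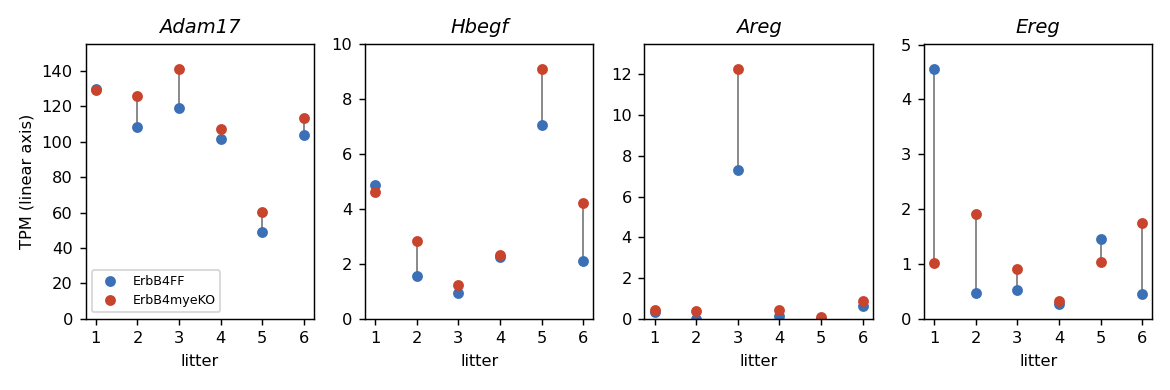
TPM on linear axes from 0 (y axis) in each litter (x axis) for Adam17, Hbegf, Areg and Ereg, with blue points for ErbB4FF, red points for ErbB4myeKO and a line joining littermates. Areg stands out in litter 3 in both littermates (7.29 and 12.3 TPM), Ereg in litter 1 in the library labelled ErbB4FF alone (4.56 TPM), and Adam17 is lowest in both libraries of litter 5.

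Adam17, which encodes the protease that releases most of these ligands as well as TNF (ENSMUSG00000052593, chr12:21323509-21373632, minus strand), was the member with the most counts, at about 2824 normalized counts by the authors' geometric mean. For that depth its counting was uncertain. Its ratio of technical variance to variance between samples was at percentile 96.9 of transcripts with similar counts, and at 60.1 of all. Only 39 of the 4413 words of its listed transcript are unique to it. Adam17 was 49.1 TPM at the lowest, 106 at the median and 130 at the highest in the libraries labelled ErbB4FF, and 60.3, 120 and 141 TPM in those labelled ErbB4myeKO. The groups overlapped, and both litter 5 libraries were lowest, while the other 10 were at 102 to 141 TPM. The library labelled ErbB4myeKO was the higher in 5 of 6 litters, and in litter 1 the log2 ratio was -0.01. Of the 8780 genes tested, 13.9% were higher in at least 5 of 6 litters, beside which the counts of Adam17 and Hbegf are to be read. Over litters the log2 ratio averaged 0.16 ± 0.11 (SD, n = 6 litters; exact permutation p = 0.0625), a fold of 1.12.

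Adam17 was the only member with an unadjusted limma p under 0.05, 1 of 4 beside 8.21% of the 8780 genes tested. Its Benjamini-Hochberg adjusted p in limma was 0.603, and the 95% interval of its log2 ratio was 0.02 to 0.30. No gene of the table passed an adjusted p of 0.05 (0 of 8780 in limma, or 0.0%, with 721 at an unadjusted p under 0.05). The groups did not overlap for 4 of the 8780 genes (0.0456%), and no member was among these. Fitted without the filter on low values, Adam17 and Areg were the 2 of 9 members with an unadjusted limma p under 0.05, beside 6.2% of 15865 genes, and none of the receptors was. Without the block for litter, without limma's trend, or with any 1 of litters 2 to 6 left out, the unadjusted limma p of Adam17 was no longer under 0.05. Litter 5, whose libraries also had the lowest median correlation with the other libraries (0.879 and 0.882), had the largest Adam17 log2 ratio, 0.29. Without litter 5 the mean log2 ratio was 0.13, the lowest with any 1 litter left out. At its 3′ end Adam17 overlaps Iah1 on the opposite strand by 311 bases, and 6.48% of its words also occur in Iah1 (mean 15.1 TPM). Whether the quantifier used the strand of the reads is not given in the sources used here.

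**Figure D4:**
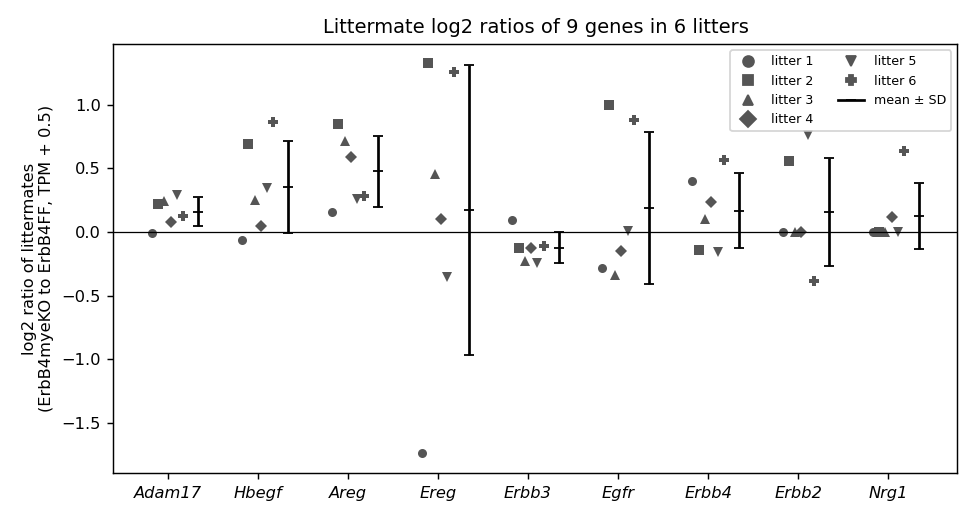
Littermate log2 ratios, ErbB4myeKO to ErbB4FF on the scale of TPM + 0.5 (y axis), of the 9 genes with any value above 0, with 1 symbol for each litter and a bar for the mean ± SD of 6 litters. All 6 Areg ratios are above 0 (0.15 to 0.85), 5 of 6 are above 0 for Hbegf and Adam17 and below 0 for Erbb3, and Ereg spans -1.74 to 1.32.

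The 4 members tested across all genes were also compared with each other, by the correlation of their littermate ratios over 6 litters (6 pairs). Hbegf and Ereg had the highest r, 0.84 (exact permutation p = 0.0278, adjusted over the 6 pairs 0.167; Spearman rho 0.77, exact permutation p = 0.103), which was 0.61 without the 2 litters farthest from the median of Hbegf. Both were higher in the libraries labelled ErbB4myeKO of litters 2 and 6 and lower in that of litter 1. Areg and Ereg had an r of 0.63 (exact permutation p = 0.178) and a rho of 0.83 (exact permutation p = 0.0583), and without litter 6 their r was 0.94 (exact permutation p = 0.0167, not adjusted). The other 4 pairs had an r between 0.20 and 0.48, with exact permutation p from 0.383 to 0.650, and these r moved widely when 1 litter was left out. None of the 6 pairs passed the adjustment.

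Most genes of the machinery around these receptors and ligands were detected, and none had an adjusted limma p under 0.05. Of 15 genes for ectodomain shedding, 10 were tested, and Adam17 was the only one with an unadjusted p under 0.05, beside 8.21% of all genes. The median limma log2 ratio of the 10 was -0.02, against 0.00 for all genes. Adam10, which encodes another sheddase, was 30.1 ± 13.3 TPM in the libraries labelled ErbB4myeKO and 27.5 ± 9.85 TPM in those labelled ErbB4FF (SD, n = 6 each), and Adam19 had a log2 ratio of 0.30 ± 0.30 (SE). Frmd8, which encodes a protein that stabilizes the iRhom and ADAM17 complex, was 21.7 ± 5.85 against 24.9 ± 4.85 TPM, lower in 5 of 6 litters (log2 ratio -0.22). Adam9 and Adam15, both metalloproteases, had log2 ratios of -0.53 ± 0.43 and -0.29 ± 0.27 (SE).

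After ectodomain shedding, γ-secretase cuts the remaining membrane stub of ErbB4, and all 7 of its listed genes were tested. A single one, Psenen (1 of 7, beside 4.82% of all genes with 1 direction in all litters), a subunit of the complex, was lower in the library labelled ErbB4myeKO in 6 of 6 litters, with 101.5 to 198 TPM against 124 to 208 TPM (log2 ratio -0.17 ± 0.07, SE; limma, Benjamini-Hochberg adjusted p = 0.603). Ncstn (log2 ratio -0.10), which encodes the subunit nicastrin, was lower in 5 of 6 litters, and Psen2 (-0.26), which encodes a catalytic presenilin, in 4 of 6. Aph1b (0.25) was higher in 4 of 6, and the median of the 7 was -0.10, with 1 positive and 6 negative.

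Of 39 genes for ErbB signal transduction 38 were tested, and 1 was higher and 3 were lower at an unadjusted p under 0.05, beside 3.83% and 4.38% of all genes. Pik3ca, which encodes the catalytic p110α subunit of PI3K, was higher in 6 of 6 litters (log2 ratio 0.27). Grb2, which encodes the adaptor that joins ErbB receptors to Ras signaling, was lower in 6 of 6 (112 ± 28.0 against 127 ± 29.5 TPM, SD, n = 6 each). Stat5b (log2 ratio -0.27), a transcription factor bound by ErbB4, and Araf (-0.26), a Raf kinase, were each lower in 5 of 6. Plcg2 and Braf, with log2 ratios of 0.12 and 0.13, did not reach an unadjusted p of 0.05, and the median of the 38 was -0.03, with 14 positive and 24 negative. All 4 genes under 0.05 had a Benjamini-Hochberg adjusted limma p of 0.603.

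Genes that attenuate ErbB signaling held none with an unadjusted limma p under 0.05 among the 18 of 25 tested, beside 8.21% of all genes. The median log2 ratio was 0.09, with 14 positive and 4 negative, against 4372 positive and 4408 negative over all genes. Errfi1, a feedback inhibitor of EGFR, was 24.6 ± 6.00 against 19.4 ± 5.41 TPM (SD, n = 6 each), higher in 3 of 6 litters. Spry1 (log2 ratio 0.42), an inhibitor of the Ras pathway, was higher in 5 of 6 litters, and Usp8 (0.47), a deubiquitinase of endosomes, in 4 of 6. On the other side, Ptpn1 (-0.25), a phosphatase, was lower in 5 of 6, while Rnf41 (-0.16), a ubiquitin ligase for ErbB3, and Spred1 (-0.09) were lower in 3 and 4 of 6.

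Of 23 genes that ERK activity induces 18 were tested, and the same number were above and below 0, 9 each (median -0.03). Dusp1, which encodes a phosphatase of MAP kinases, was lower in the library labelled ErbB4myeKO in 6 of 6 litters, with 118 to 358 TPM against 167 to 429 TPM (log2 ratio -0.39 ± 0.11, SE). Fos, an immediate early transcription factor, was lower in 5 of 6, with 4.30 to 8.44 TPM against 6.39 to 15.4 TPM (log2 ratio -0.54 ± 0.15, SE). These were the 2 of 18 with an unadjusted limma p under 0.05, beside 8.21% of all genes in either direction and 4.38% in the lower direction alone, and their Benjamini-Hochberg adjusted p was 0.603. Atf3 (-0.27) was lower in 5 of 6 litters. Dusp6 (log2 ratio 0.45), which encodes a phosphatase of ERK, and Phlda1 (0.71) were higher in 5 of 6 litters, and Klf10 (0.70) in 3 of 6. None of these 4 reached an unadjusted p of 0.05 in limma.

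**Figure D5:**
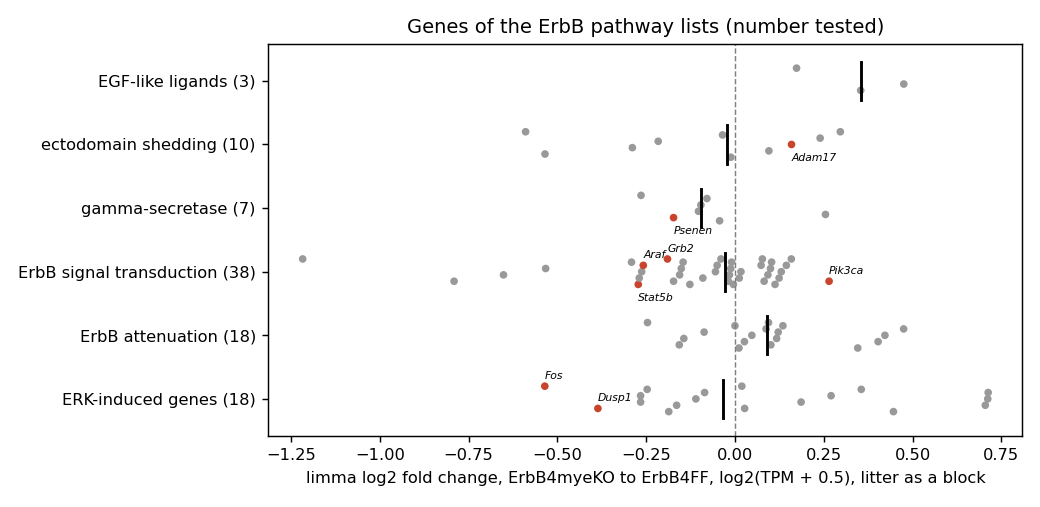
Limma log2 ratio of ErbB4myeKO to ErbB4FF (x axis) of each tested gene of 6 pathway lists (y axis, number tested in brackets), red where the unadjusted p is under 0.05 and grey otherwise, with a black bar at the median of each list and a dashed line at the median of all genes. The list medians lie between -0.10 and 0.09 except for the 3 EGF-like ligands (0.35), and the 8 red genes lie on both sides of 0.

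Markers of activated macrophages were high in all libraries. All 8 macrophage markers had a mean of at least 1 TPM (Lyz2, 6791 TPM), as did all 10 markers of M1 activation (Il1b, 7751 TPM). The sum of the macrophage markers was lower in the library labelled ErbB4myeKO in 5 of 6 litters (log2 ratios from -0.76 to -0.22 in litters 1 to 5 and 0.80 in litter 6). Most of that sum is Lyz2, whose locus carries Cre in LysMCre mice. Lyz2 was at 3120 to 8000 TPM in the libraries labelled ErbB4myeKO and at 2960 to 13300 TPM in those labelled ErbB4FF. The part of the Cre allele in these values was not tested. The sum without Lyz2, chosen after the values were seen, was lower in 2 and higher in 4 of 6 litters. Its log2 ratios ran from -0.47 to 0.45, with 0.10 in litter 6. Adgre1 was at 686 to 1030 TPM in the libraries labelled ErbB4myeKO against 662 to 1060 TPM, and Cd68 at 314 to 571 TPM against 338 to 544 TPM. The sum of the M1 markers was higher in 5 of 6 (from -0.16 in litter 5 to 1.38 in litter 2). The part of the M1 markers in the ratios of Areg, Hbegf and Adam17 was not tested. Dendritic cell markers, with Siglech and Cd209a listed at 0, summed to 4.56 to 33.6 TPM (most abundant Xcr1) and were higher in the library labelled ErbB4myeKO in 5 of 6 litters, with log2 ratios from -0.03 in litter 5 to 1.05 in litter 4. Their part in the ratios of Areg and Hbegf was not tested. Lymphocyte markers (Cd79b) summed to at most 2.42 TPM, mast cell and basophil markers (Mcpt8) to at most 5.20 TPM, erythroid markers (Hba-a1) to at most 0.981 TPM, and proliferation markers (Mki67) to 15.6 to 46.7 TPM. The 4 Y-linked genes, used as a stand-in for the unlabelled sex, were summed at 36.1 to 49.2 TPM in litters 1 to 4 and at 0.202 to 0.406 TPM in litters 5 and 6, and littermates were alike.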

How the data were processed

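The authors pseudoaligned single-ended reads with kallisto and deposited TPM for principal transcripts, which held 59.0% to 74.7% of the TPM of a library. They also deposited normalized estimated counts as natural log values averaged over samples, and 2 variances, a score scale here, used as deposited for single members. The submitters' processing notes name CASAVA, kallisto, sleuth and mm10, whose versions are not given in the sources used here. Columns of the authors' own comparison (p-values, q-values, test statistics and log2 ratios) were not used. The table has 29213 lines, of which 405 repeat a transcript and were dropped, and 35 gene symbols turned into dates were mended from GENCODE M21.

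After summing TPM over the transcripts of a gene, 8780 genes averaged 1 TPM or more. Their log2(TPM + 0.5) entered limma 3.58.1 (R 4.3.3; lmFit, eBayes with trend) with genotype and a litter block, and p-values were adjusted by Benjamini-Hochberg over all genes. For single genes, genotype was swapped within litters in all 64 ways (exact permutation, two-sided), which gives no p below 0.0312. The labels name no litter. Libraries of the 2 genotypes with the same number in their labels were taken as littermates, and the design text places each pair in a separate litter. Littermates deviated together from the gene means (r from 0.273 to 0.774 in 6 litters). Libraries come from separate mice. The other steps used scipy 1.17.1, pandas 2.3.3, numpy 2.4.6 and matplotlib 3.10.9 under Python 3.11.15.

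The members and lists were chosen with earlier results of these data known. Named genes are the members, the other EGF-like ligands, and for each pathway list the 3 genes with the smallest limma p in each direction, and for each marker list its sum and most abundant gene. Further genes were chosen after their values were seen. The genes most like Adam17 are those with the highest Pearson r over 12 libraries among genes that average 5 TPM or more. Alternatives were no block, a Y-linked covariate, pseudocounts of 0.1 and 1, no filter, a filter at 5 TPM, median-ratio rescaling, no trend, the highest transcript alone, and each litter left out. Counts per TPM were derived from the deposited mean counts, TPM and length of 7353 transcripts, as TPM give no depth per library.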

Additional observations from a re-analysis of the deposited data

Results flagged for a closer look

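For each gene with a value above 0 and each group of 6, and for the 6 littermate ratios, the gap of the most extreme value to its nearest neighbor was compared with the range (Dixon's test, critical value 0.625). Of 26 sets of 6 values, 8 stood apart, and chance flags about 1 in 20 for normally distributed values. TPM are skewed, sets with most values at 0 are set apart by any value above 0, and 2 of the 8 rest on the same Nrg1 value, so the count of 8 cannot be read against that rate. Areg in litter 3 did so in both groups, at 7.29 TPM in the library labelled ErbB4FF (next value 0.631 TPM) and at 12.3 TPM in that labelled ErbB4myeKO (next value 0.873 TPM). Ereg was at 4.56 TPM in the litter 1 library labelled ErbB4FF, with the next value at 1.46 TPM. Adam17 was at 49.1 TPM in the litter 5 library labelled ErbB4FF, below the next value of 102 TPM. Erbb4 was at 0.716 TPM in the litter 3 library labelled ErbB4FF, above the next value of 0.430 TPM. In genes listed at 0 in most libraries, single values above 0 stood apart: Erbb2 at 0.152 TPM in the litter 6 library labelled ErbB4FF, and Nrg1 at 0.279 TPM in the litter 6 library labelled ErbB4myeKO. The Nrg1 littermate log2 ratio of litter 6, 0.64, stood apart as well and rests on that same value.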

How the results depend on the processing

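Of 314 values under alternatives, over 28 results, 259 were labelled the same, 36 weaker, 8 stronger and 11 reversed. For ratios, level differences and correlations, the same means that direction and side of the 0.05 threshold were kept. For counts of genes or members it means only a count of similar size. The highest transcript alone repeats the main values of members with 1 listed transcript. With 1 litter left out, ratios and level differences cannot fall under 0.05 by exact permutation. The tally is therefore no measure of robustness. The cause of these changes was not tested unless stated. The replicate block for litter changed the count of genes at an unadjusted p: without the block, 75 genes had an unadjusted limma p under 0.05 instead of 721, and 0 members instead of 1 (Adam17), while the count of genes with an adjusted p under 0.05 was 0 in both fits. The members under 0.05 were 2 without a filter (Adam17 and Areg) and 2 of 4 without trend (Areg and Hbegf, beside 661 of 8780 genes in that fit), and Adam17 alone with the Y-linked covariate. With a mean of at least 5 TPM, 0 members kept 1 direction in all litters, as Areg is then no longer tested. Areg had a log2 ratio of 0.48 in limma with or without the block, which follows from the design of 1 library of each genotype per litter. With the Y-linked covariate it was 0.52, and the unadjusted limma p of Areg was above 0.05 in each of these fits. Adam17 had 0.16 in limma with the block and 0.17 with the covariate, with unadjusted limma p under 0.05. Littermates were alike in the Y-linked genes, so the litter block already takes up their difference between litters. The covariate is therefore no separate test of sex. A pseudocount of 0.1 moved the Areg log2 ratio from 0.48 to 1.01, that of Ereg from 0.17 to 0.33 and that of Egfr from 0.19 to 0.43. A pseudocount of 1 moved them to 0.33 for Areg, 0.094 for Ereg and 0.11 for Egfr, and it put Egfr 0.011 above Erbb4 on the log2 scale. With 1 litter left out, the smallest exact permutation p of a ratio or a level difference is 0.0625. Then the genes with an adjusted p under 0.05 were 0 to 1 (Igkv1-88 without litter 3, limma adjusted p = 0.0490, chosen after its value was seen), those with an unadjusted p under 0.05 were 413 to 864, the members under 0.05 were 0 to 2 (2 without litter 1, Adam17 and Hbegf, beside 8.21% of 8758 genes in that fit), and the members with 1 direction in all litters were 1 to 3 (3 without litter 1, beside 9.29% of all genes with 1 direction in those 5 litters). The mean log2 ratio then ranged from 0.40 to 0.54 for Areg, from -0.057 to 0.56 for Ereg, with -0.057 without litter 2 and -0.043 without litter 6, from 0.25 to 0.44 for Hbegf and from 0.13 to 0.19 for Adam17. The log2 difference of Ereg over Erbb3 ranged from -0.0053 to 0.36, that of Egfr over Erbb4 from -0.16 to 0.071, with 0.034 without litter 2, 0.056 without litter 4 and 0.016 without litter 6, the correlation of Adam17 and Areg ratios from 0.013 to 0.82, that of Adam17 and Hbegf from 0.041 to 0.74, that of Adam17 and Ereg from -0.27 to 0.77 and that of Hbegf and Areg from -0.16 to 0.64, with -0.14 without litter 2, and that of Areg and Ereg from 0.36 to 0.94. The ratios and tests of members below 1 TPM were chosen after seeing the data. The mean log2 ratio ranged from 0.087 to 0.23 for Erbb4 and from 0.025 to 0.29 for Egfr with 1 litter left out. As 1 TPM of Areg is about 7.28 normalized estimated counts, differences of single counts could not be detected.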

Other observations

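Over the 12 libraries, the genes whose log2 level was most like that of Adam17, among 5774 genes that average 5 TPM or more, were Rassf4 (Pearson r = 0.98), Fam91a1 (0.98), Pik3c2a (0.98), which encodes a class II PI3-kinase, Nfe2l1 (0.98), a transcription factor of proteasome genes, and Edem3 (0.98), which acts in the degradation of glycoproteins. These libraries share litters, and the low values of litter 5 enter each r, so these values are a description.

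The genes most like the 3 ligands were looked up after their values were seen. Hbegf levels were most like those of Rgs16 (r = 0.94), a regulator of G protein signaling, Serping1 (0.94), the C1 inhibitor, and Plac8 (0.94). Areg levels were most like those of Trp53inp2 (0.94) and Rasa2 (0.93), and for Areg the Spearman rho was lower, 0.72 and 0.70, as both high values come from litter 3. Ereg levels were most like those of Cxcl5 (r = 0.82, rho = 0.87), which encodes a chemokine for neutrophils. All are correlations over 12 libraries in 6 litters among 5775 genes.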
